A study of Mus musculus with 19 samples.

Results

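The 9 genes described here are markers of the organizer and of definitive endoderm: Gsc, Cer1, Foxa2, Foxa1, Sox17, Chrd, Nog, Hhex and Cxcr4. They were taken by gene name from a table of 38424 gene and locus entries, in which each name had 1 entry. All 9 reached 1 FPKM (fragments per kilobase of transcript, scaled by mapped fragments) in at least 2 libraries and were among the 14942 entries tested. The table covers 19 poly(A) RNA-seq libraries of mouse embryonic stem cells differentiating in culture. Each carried a short hairpin (sh) aimed at 1 RNA, or a control hairpin. Most hairpins were aimed at long non-coding RNAs transcribed from beside a developmental gene, and shEVX1 at the coding gene itself. The series asked how such RNAs relate to developmental regulation.

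For 12 libraries differentiation was started by removing LIF, a cytokine that holds embryonic stem cells undifferentiated, in medium with 15% serum. Of these, 2 shEvx1as libraries and 1 control were from the CJ7 line at day 4, and 2 shEVX1 libraries and 1 control from the CJ9 line at day 4. CJ9 cells also gave 2 shFendrr and 2 control libraries at day 5, and 1 shLhx1os and 1 control library at day 6. The strain label of these lines is 129S4/SvJae. The other 7 libraries were from the 46c line after 4 days with 5 nM retinoic acid in N2B27, a neural medium without serum: 2 shNr2f1as, 1 shSox21os, 2 shPou3f3os and 2 controls. Nothing in the labels says that libraries of 1 group came from separate cultures or hairpins, and a p-value here may reflect technical spread alone. Each culture is a mixture of cells, and fewer cells of a type and less RNA per cell cannot be told apart.

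The organizer is the signalling centre at the front of the primitive streak in the gastrulating embryo. Its cells express the homeodomain factor goosecoid (Gsc) and secrete proteins that bind and block other signals. Chordin (Chrd) and noggin (Nog) bind BMPs, and cerberus (Cer1) binds Nodal and BMP ligands. High Nodal signalling in the same region gives rise to definitive endoderm, the source of gut, liver and pancreas. Foxa2 and Foxa1 are forkhead factors of endoderm, and Foxa2 is also needed for node and notochord. Sox17 is an HMG-box factor needed for definitive endoderm, Hhex is a homeodomain factor of anterior definitive endoderm, and Cxcr4 is a chemokine receptor used to sort definitive endoderm from culture. Most of these genes are expressed elsewhere too: Foxa2, Sox17, Hhex and Cer1 in visceral endoderm, Foxa2 in floor plate, Sox17 and Hhex in endothelium, and Cxcr4 and Nog in mesoderm and neural tissue.

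In mm9 coordinates, Gsc lies at chr12:105709419-105711446, Cer1 at chr4:82527655-82531055, Foxa2 at chr2:147868614-147872705, Foxa1 at chr12:58641619-58647108 and Sox17 at chr1:4481009-4486494. Chrd lies at chr16:20733200-20742457, Nog at chr11:89161952-89163873, Hhex at chr19:37509331-37515221 and Cxcr4 at chr1:130484776-130488876. Sox17 overlaps 1 unnamed assembled locus, which stayed at or below 0.15 FPKM in the 19 libraries, and the other 8 overlap no other entry of the table.

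The promoter windows of Cer1, Gsc and Foxa2 are printed because these had the 3 lowest log2 changes of the 9 genes under shEvx1as, and because EVX1, the product of the gene beside Evx1as, binds DNA through a homeodomain. They run from 250 bases before to 50 bases after an annotated start, in RefSeq coordinates of GRCm38.p6, and all 3 read on the minus strand: Cer1 at chr4:82885102-82885401, Gsc at chr12:104473187-104473486 and the first of 3 Foxa2 starts at chr2:148046920-148047219. Capitals mark a homeodomain core (TAATTA) and a SMAD element (CAGAC) in Cer1, a SOX element (ACAAT) in Gsc and a SMAD element in Foxa2.
Cer1: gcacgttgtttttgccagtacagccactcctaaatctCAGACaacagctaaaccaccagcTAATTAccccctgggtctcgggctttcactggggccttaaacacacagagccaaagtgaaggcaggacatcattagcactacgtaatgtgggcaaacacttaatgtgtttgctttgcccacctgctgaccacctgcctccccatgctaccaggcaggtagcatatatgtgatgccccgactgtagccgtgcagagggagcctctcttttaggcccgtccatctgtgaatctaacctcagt
Gsc: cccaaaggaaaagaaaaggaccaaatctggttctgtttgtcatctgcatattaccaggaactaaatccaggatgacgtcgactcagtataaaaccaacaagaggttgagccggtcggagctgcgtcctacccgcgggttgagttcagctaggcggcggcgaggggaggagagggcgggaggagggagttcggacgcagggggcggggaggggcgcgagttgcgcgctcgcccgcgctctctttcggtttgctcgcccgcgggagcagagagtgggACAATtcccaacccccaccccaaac
Foxa2: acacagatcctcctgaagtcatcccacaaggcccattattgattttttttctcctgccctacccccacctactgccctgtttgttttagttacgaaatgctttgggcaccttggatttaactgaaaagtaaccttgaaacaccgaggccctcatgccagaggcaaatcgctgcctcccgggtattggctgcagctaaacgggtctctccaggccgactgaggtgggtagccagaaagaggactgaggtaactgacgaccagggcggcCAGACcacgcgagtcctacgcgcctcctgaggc

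Counting the base after the first 250 as position 0, the Cer1 window held TAATTA at position -190 and CAGAC at -213. The Gsc window held ACAAT at 25, and the first Foxa2 window held CAGAC at 17. Windows were found for 7 of the 9 genes, with 3 for Foxa2 and so 9 in all, and both strands were searched; Sox17 and Nog were not matched. TAATTA was in 1 of the 9 windows, that of Cer1, and in 5.3% of all 32851 promoter windows. CAGAC was in 3 of 9, the third being that of Chrd, against 49.6% of all windows, and ACAAT in 1 of 9 against 31.0%. The FOXA core TGTTTAC was in the Foxa1 window (3.6% of all windows). The bicoid-type core TAATCC, bound by GSC and OTX2, was in none of the 9 (7.1% of all windows), and neither were the FOXH1 elements AATCCACA (0.9%) and AATACACA (1.0%) or the T-box element AGGTGTGA (1.3%). These are matches of letters and no measure of binding.

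Among the targeted genes, the entry on the Evx1as locus, 5730457N03Rik, was at 0.354 and 0.290 FPKM in shEvx1as cells, against 1.66 in their control. Evx1 was at 30.2 and 37.0 FPKM in shEVX1 cells, against 53.9 in theirs. In shEvx1as cells Evx1 was at 5.43 and 1.57 FPKM, against 6.71 in the control, and 5730457N03Rik was at 10.8 and 13.4 in shEVX1 cells, against 10.4. The 2 entries overlap on chromosome 6, and the sources used here do not say if reads were counted by strand. Fendrr was at 0.358 and 0.0768 FPKM in shFendrr cells, against 1.10 and 1.49 in controls. Levels of the RNAs targeted by shLhx1os, shNr2f1as, shSox21os and shPou3f3os are not given here, so their lowering was not checked. Library totals were 559050 to 655315 FPKM, with 12255 to 12825 entries at 1 FPKM or more.

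At day 4, 7 of the 9 genes lay below the control in both shEvx1as libraries and above it in both shEVX1 libraries, a pattern of 11.7% of all entries. Gsc, Cer1, Foxa2, Sox17 and Cxcr4 were lower in both shEvx1as libraries than in the CJ7 control, and higher in both shEVX1 libraries than in the CJ9 control. The same held for Chrd and Hhex, with smaller differences, and not for Nog, lower on average in both knockdowns, or Foxa1, higher in both. No gene of the 9 passed the adjusted threshold of 0.05 in either experiment, and each control is a single library.

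Gsc was at 10.8 and 1.98 FPKM in the shEvx1as libraries, against 19.3 in the control. The second shEvx1as library was the lower of the pair. Cer1 was at 1.47 and 0.327 FPKM in shEvx1as cells, against 4.55 in the control. Foxa2 was at 4.28 and 2.01 FPKM in shEvx1as cells, against 11.6 in the control. For these 3 genes both knockdown libraries lay below the control, and replicate 2 was the lower each time. On the log2(FPKM + 1) scale, which understates the change of low genes, Gsc differed by -1.77 ± 0.63 (SE; limma adjusted p = 1). Cer1 differed by -1.62 ± 0.36 (limma adjusted p = 0.7289) and Foxa2 by -1.66 ± 0.44 (limma adjusted p = 0.9872). The difference in Gsc depended on the library: it was -2.77 without replicate 1 and -0.78 without replicate 2.

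Sox17 was at 0.712 and 1.03 FPKM in shEvx1as cells, against 2.26 in the control, a log2 difference of -0.81 ± 0.30 (limma adjusted p = 1). Cxcr4, which carries the response to the chemokine Cxcl12, was at 2.00 and 1.45 FPKM in shEvx1as cells, against 5.46 in the control. Its log2 difference was -1.25 ± 0.60 (limma adjusted p = 1). The BMP antagonists differed little between shEvx1as cells and control: Chrd was at 0.808 and 0.989 FPKM, against 1.40, and Nog at 4.60 and 3.53, against 4.56. The log2 differences were -0.34 (95% interval -0.98 to 0.30) for Chrd and -0.14 (-1.02 to 0.74) for Nog. Hhex was at 6.23 and 6.93 FPKM in shEvx1as cells, against 6.95 in the control, and its log2 difference was -0.07 (-0.78 to 0.64). Foxa1 was the single gene with both shEvx1as libraries above the control, at 1.52 and 1.81 FPKM against 1.30, a log2 difference of 0.21 (-0.20 to 0.62).

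The shEvx1as comparison thus had 4 of 9 genes lower at an unadjusted p under 0.05 (Gsc, Cer1, Foxa2 and Sox17) and a median log2 difference of -0.81. Among all entries tested, 1.59% were lower at that p, the median was 0.05, and 0.00669% (1 entry) passed the adjusted threshold. Both shEvx1as libraries lay below their control for 7 of 9 genes, as they did for 26.3% of all entries. With the controls of both lines taken as 1 group, 2 genes in place of 4 were lower at an unadjusted p under 0.05, and Cer1 and Foxa2 differed by -0.59 and -0.43.

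In shEVX1 cells Gsc was at 38.1 and 38.7 FPKM, against 16.0 in the CJ9 control. Both values were above all other libraries of the series. Cer1 was at 7.16 and 4.03 FPKM in shEVX1 cells, against 0.339 in the control. Foxa2 was at 9.50 and 5.76 FPKM in shEVX1 cells, against 1.29 in the control. Sox17 was at 4.00 and 1.85 FPKM in shEVX1 cells, against 0.576 in the control. For these 4 genes the knockdown libraries lay above the control, and replicate 1 was the higher for all but Gsc. Cer1 had the 3rd smallest p of all entries (log2 difference 2.26 ± 0.36, limma adjusted p = 0.2791). Foxa2 differed by 1.88 ± 0.44 (limma adjusted p = 0.9107) and Sox17 by 1.26 ± 0.30 (limma adjusted p = 0.9248). The log2 difference of Gsc was 1.21 ± 0.63 (limma adjusted p = 1).

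Cxcr4 was at 24.3 and 20.6 FPKM in shEVX1 cells, against 14.0 in the control, with a log2 difference of 0.64 (95% interval -0.69 to 1.98). Chrd was at 1.70 and 0.506 FPKM in shEVX1 cells, against 0.324, with a log2 difference of 0.61 ± 0.29 (limma adjusted p = 1). Without replicate 1 that difference was 0.19. Nog ran the other way, at 2.65 and 1.79 FPKM in shEVX1 cells, against 4.09, with a log2 difference of -0.67 (-1.55 to 0.20). Hhex was at 4.06 and 3.62 FPKM in shEVX1 cells, against 3.05, and Foxa1 at 0.265 and 0.285, against 0.232. Their log2 differences were 0.26 (-0.45 to 0.97) and 0.05 (-0.36 to 0.46).

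In shEVX1 cells 3 of 9 genes were higher at an unadjusted p under 0.05 (Cer1, Foxa2 and Sox17), and the median log2 difference of the 9 was 0.64. Among all entries 2.24% were higher at that p, with a median of 0.05, and 0.00669% (1 entry) passed the adjusted threshold. Both shEVX1 libraries lay above their control for 8 of 9 genes, all but Nog, but they did so for 46.7% of all entries as well. With the controls of both lines taken as 1 group, Cer1 differed by 1.23, Foxa2 by 0.65 and Sox17 by 0.74.

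**Figure D1:**
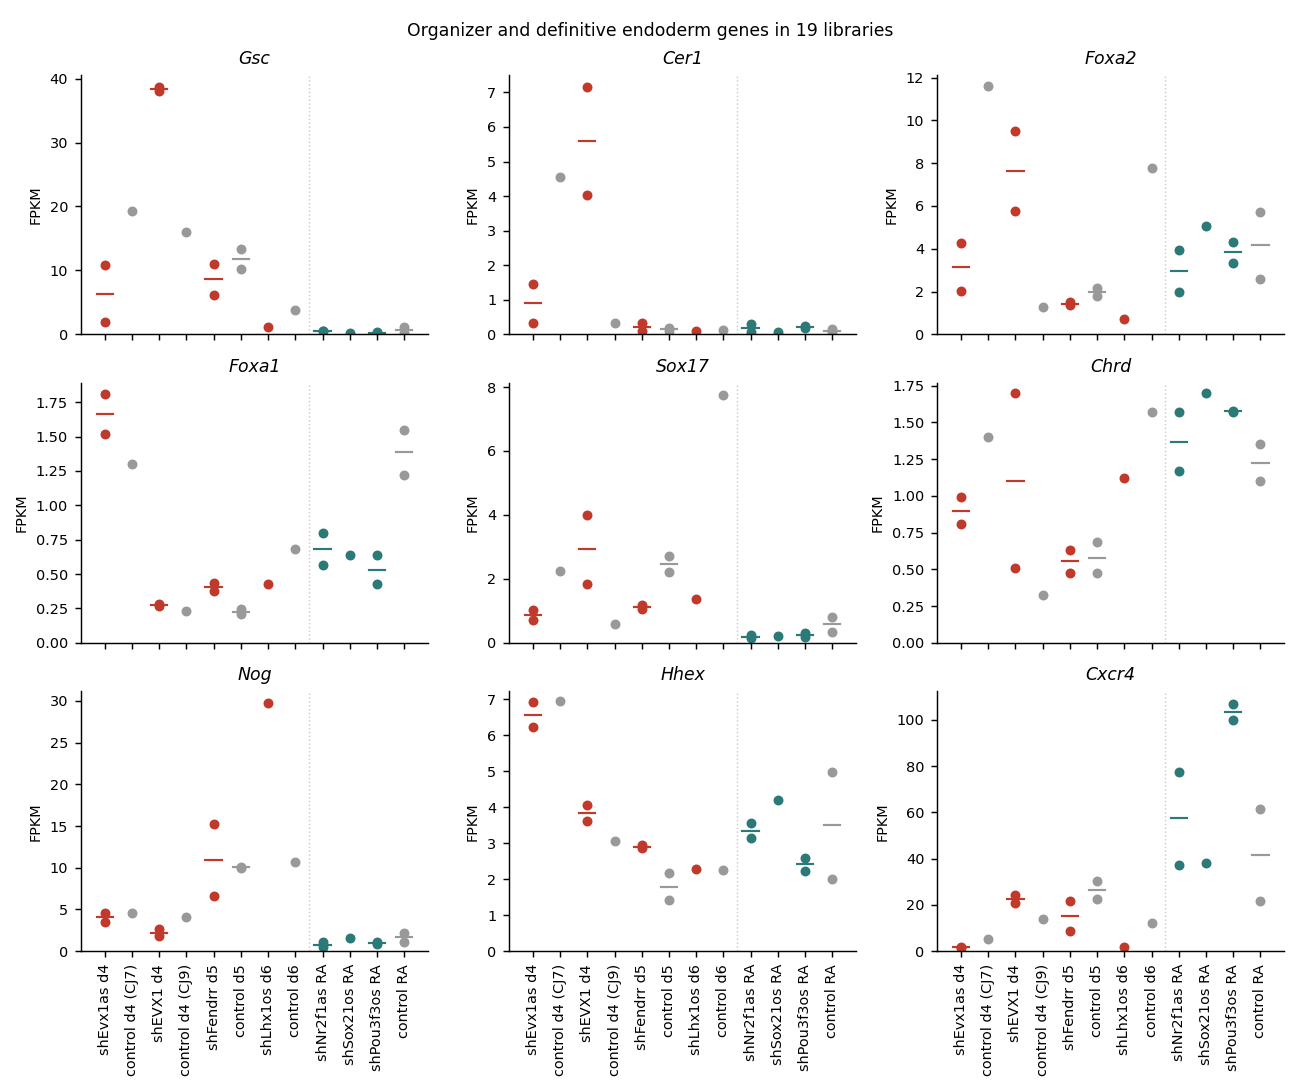
FPKM (vertical axes, linear, from 0) of each of the 9 genes in the 12 groups of libraries, with the retinoic acid (RA) groups right of the dotted line; points are libraries, short lines are means of groups of 2, and control libraries are grey. In shEVX1 cells Gsc reaches 38.1 and 38.7 FPKM, and Foxa2 and Sox17 are highest in control libraries, at 11.6 (CJ7, day 4) and 7.75 FPKM (day 6).

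The shEvx1as and shEVX1 effects were compared by their own difference. The shEvx1as effect minus the shEVX1 effect was -3.87 ± 0.50 for Cer1 (limma adjusted p = 0.07288), the 2nd smallest p of 14942 entries. It was -3.54 ± 0.62 for Foxa2 (limma adjusted p = 0.564, rank 4) and -2.07 ± 0.43 for Sox17 (limma adjusted p = 0.6983, rank 10). It was -2.99 ± 0.89 for Gsc, -1.90 ± 0.86 for Cxcr4 and -0.95 ± 0.41 for Chrd (limma adjusted p = 1 for each). For Hhex, Foxa1 and Nog the difference of the effects was -0.33, 0.16 and 0.53, with intervals that include 0. In this comparison 6 of 9 genes were lower at an unadjusted p under 0.05, against 1.44% of all entries, and the median over the 9 was -1.90, against 0.00 over all entries. By limma 0% of entries passed the adjusted threshold, and 428 had an unadjusted p under 0.05. Cer1 passed it when the first shEvx1as library was left out (adjusted p = 0.01317), and had an adjusted p between 0.05042 and 0.1594 with each of the other 3 knockdown libraries left out. For 7 genes (Gsc, Cer1, Foxa2, Sox17, Chrd, Hhex and Cxcr4) both shEvx1as libraries lay below and both shEVX1 libraries above their controls, the pattern given above. Cell line and experiment go with the pair of groups, so the part of each in this difference cannot be told apart.

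**Figure D2:**
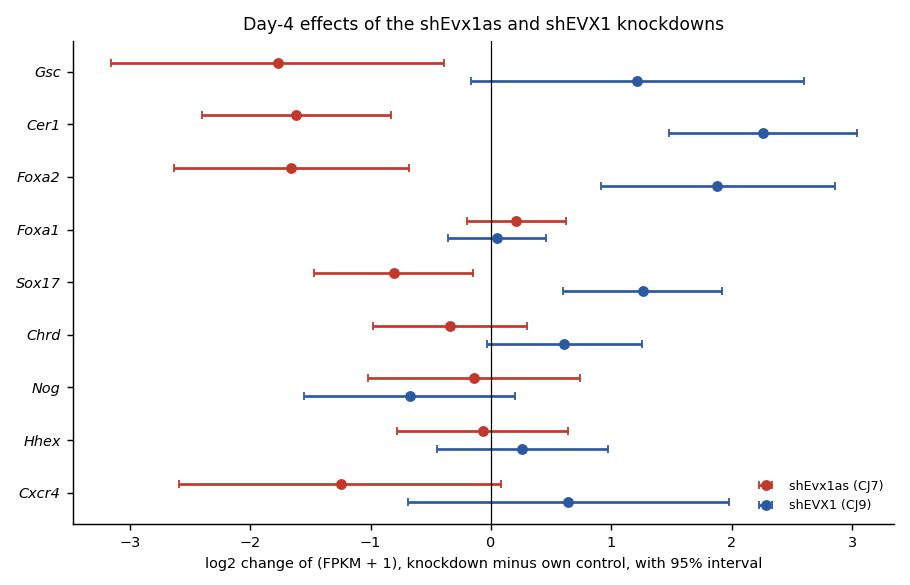
Log2 change of (FPKM + 1) at day 4, knockdown minus its own control, for each of the 9 genes; points are limma estimates from 2 knockdown libraries and 1 control, and bars are 95% intervals. Cer1 (-1.62 under shEvx1as and 2.26 under shEVX1) and Foxa2 (-1.66 and 1.88) have intervals on opposite sides of 0, as does Sox17. The intervals of Foxa1, Chrd, Nog, Hhex and Cxcr4 include 0 in both experiments, and that of Gsc includes 0 under shEVX1 only.

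The day-4 controls themselves differed in these genes. The CJ7 control had more Foxa2 (11.6 FPKM, against 1.29 in the CJ9 control), Cer1 (4.55 against 0.339) and Sox17 (2.26 against 0.576), with log2 differences of 2.46, 2.05 and 1.05. It had less Cxcr4, at 5.46 FPKM against 14.0 in the CJ9 control, a log2 difference of -1.21. The CJ7 control was also higher in Hhex (6.95 against 3.05 FPKM), Foxa1 (1.30 against 0.232) and Chrd (1.40 against 0.324), by 0.97, 0.90 and 0.86, just short of a 2-fold difference on this scale. Gsc (19.3 against 16.0 FPKM) and Nog (4.56 against 4.09) were close, at 0.26 and 0.13. There is 1 control library of each line, so these differences have no replicate check and no test.

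Of the 9 genes, 3 were at least 2-fold higher and 1 at least 2-fold lower in the CJ7 control, against 2.64% and 1.51% of all entries, and the median log2 difference was 0.90 against 0.01 over all entries. The count depends on the pseudocount: with 0.1 in place of 1, Foxa1 (2.08), Chrd (1.83) and Hhex (1.16) were past 2-fold as well, which makes 6 of 9 higher. Other genes of the organizer ran the other way, with 8 of 11 tested lower in the CJ7 control (median -0.95). Of these 11, 5 were at least 2-fold lower and 1 at least 2-fold higher. Of 12 other endoderm genes tested, 7 were lower there and 5 higher (median -0.38). Streak genes, a list that shares genes with the organizer list, had 11 of 12 lower in the CJ7 control (median -0.98). The streak factor T was at 143 FPKM there, against 326 in the CJ9 control. Of 8 embryonic stem cell genes, 7 were higher in the CJ7 control (median 1.00), and of all 14942 entries 7660 were higher there and 7118 lower. The part of these markers in the Cer1, Foxa2 and Sox17 differences was not tested. In Foxa2, Cer1 and Sox17 the CJ7 control stood high and the CJ9 control low, so the knockdown libraries of the lines lay closer together than their effects. Foxa2 was at 4.28 and 2.01 FPKM in shEvx1as cells and at 9.50 and 5.76 in shEVX1 cells. Cer1 in shEvx1as cells, at 1.47 and 0.327 FPKM, overlapped the CJ9 control at 0.339. Gsc differed from this: its controls were alike, and its knockdown libraries lay on either side of both controls. Cxcr4 ran the other way, with the lower value in the CJ7 control. Its knockdown libraries lay further apart than its effects, at 2.00 and 1.45 FPKM in shEvx1as cells and 24.3 and 20.6 in shEVX1 cells.

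Other genes of the organizer lay in the same direction as Gsc and Cer1 in the shEvx1as experiment. Of 11 tested genes of this list beyond the 9, all 11 were lower in shEvx1as cells, with a median of -0.88, 3 of them at an unadjusted p under 0.05. Lhx1, a LIM homeodomain factor needed for organizer function, was at 5.80 and 0.885 FPKM in shEvx1as cells, against 21.3 in the control (log2 difference -2.64 ± 0.67, limma adjusted p = 0.8967). The Wnt antagonist Dkk1 was at 1.05 and 0.547 FPKM in shEvx1as cells, against 2.54 in the control (-0.99). The retinoic acid-degrading enzyme Cyp26a1 was at 5.90 and 1.98, against 10 (-1.28). In shEVX1 cells 9 of these 11 genes were higher, with a median of 0.35 and none at an unadjusted p under 0.05. For this and the following lists, the counts over all 14942 entries tested were 5937 lower in shEvx1as cells and 9100 higher in shEVX1 cells. Lhx1 was at 60.5 and 52.7 FPKM in shEVX1 cells, against 24.3 in the control (log2 difference 1.18), and Otx2, an anterior homeodomain factor, at 41.9 and 34.8, against 14.2 (1.37). For the difference between the effects all 11 were negative, with a median of -1.48, as were 7439 of all 14942 entries, with a median of 0.00. None of these genes was called in a day-4 comparison.

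The streak and mesoderm list, which shares Lhx1 and other genes with that list, had 11 of 12 lower in shEvx1as cells (median -0.89). Mixl1, a homeobox factor of mesendoderm, was at 10.5 and 1.84 FPKM in shEvx1as cells, against 19.7 in the control (log2 difference -1.85), and Mesp1, a mesoderm factor, at 3.39 and 0.249, against 6.77 (-1.73). T was at 105 and 25.9 FPKM in shEvx1as cells, against 143 in the control. So the second shEvx1as library, lower in Gsc, Cer1 and Foxa2, was lower in streak genes too, and the part of the streak genes in those values was not tested. In shEVX1 cells the streak list had 5 of 12 higher (median -0.06): T was at 193 and 270 FPKM, against 326 in the control, and Msgn1, a presomitic mesoderm factor, at 0.508 and 1.49, against 7.73 (log2 difference -2.17 ± 0.40, limma adjusted p = 0.4229). Mesp1 was at 108 and 122 FPKM in shEVX1 cells, against 67.1 in the control (0.76), and Mixl1 at 83.1 and 104, against 82.1 (0.18), so the list was mixed in direction.

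Of 12 other endoderm genes tested, 10 were lower in shEvx1as cells (median -0.24) and 6 were higher in shEVX1 cells (median 0.00). Gata6, a zinc-finger factor of endoderm, was at 2.03 and 2.88 FPKM in shEvx1as cells, against 5.06 in the control, and at 10.5 and 11 in shEVX1 cells, against 7.89. Eomes, a T-box factor that acts with Nodal signals upstream of endoderm, was at 30.4 and 19.1 FPKM in shEvx1as cells, against 40.6, and at 124 and 147 in shEVX1 cells, against 79.6.

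The Nodal pathway itself differed less. Of 16 tested ligands, receptors, SMADs, inhibitors and targets, 10 were lower in shEvx1as cells (median -0.16) and 8 in shEVX1 cells (median -0.04), with none at an unadjusted p under 0.05 in either. Nodal was at 93.6 and 91.8 FPKM in shEvx1as cells, against 88.0 in the control, and at 56.5 and 56.8 in shEVX1 cells, against 61.1. Lefty1, a Nodal inhibitor and target, was at 43.8 and 34.1 FPKM in shEvx1as cells, against 56.3, and at 29.3 and 24.2 in shEVX1 cells, against 35.3. Lefty2, a second inhibitor and target, was at 22.5 and 15.8 FPKM in shEvx1as cells, against 32.6, and at 27.7 and 26.3 in shEVX1 cells, against 25.0. Cfc1, a Nodal co-receptor, was at 1.52 and 0.828 FPKM in shEvx1as cells, against 2.82 (log2 difference -0.83), and at 8.63 and 7.33 in shEVX1 cells, against 3.84 (0.89). Lefty1 was thus below the control in both experiments, while Lefty2 and Cfc1 had the signs of Gsc.

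Among 14 genes of BMP ligands, receptors and targets the median was 0.01 in shEvx1as cells and -0.12 in shEVX1 cells. Bmp4 was at 6.06 and 4.78 FPKM in shEvx1as cells, against 5.84, and at 4.17 and 4.27 in shEVX1 cells, against 9.05 (log2 difference -0.94, limma adjusted p = 1). The BMP target Id2 was at 54.2 and 57.7 FPKM in shEvx1as cells, against 31.2 (0.82), and at 44.3 and 34.0 in shEVX1 cells, against 57.1.

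**Figure D3:**
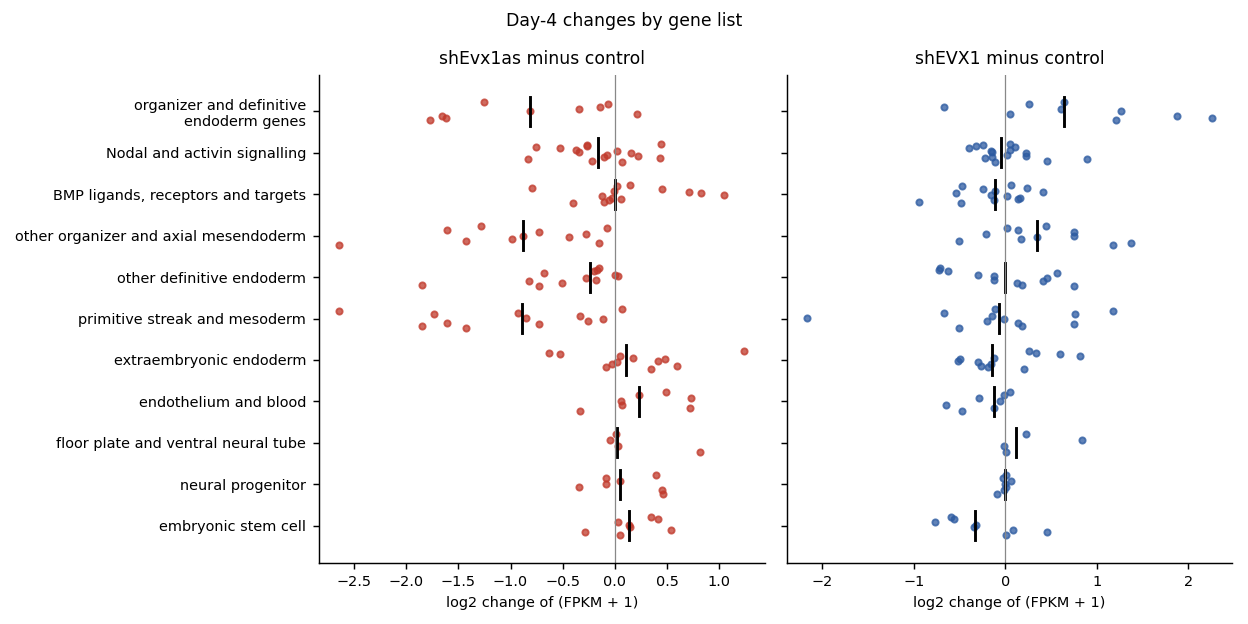
Log2 change of (FPKM + 1) at day 4 of every tested gene of 11 lists (points; some genes are in more than 1 list), knockdown minus its own control, with the median of each list as a black bar; shEvx1as is on the left and shEVX1 on the right. The 9 organizer and endoderm genes have medians of -0.81 and 0.64, and the other organizer genes -0.88 and 0.35.

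The lists of extraembryonic endoderm and of endothelium and blood had medians of opposite sign to that of the 9 genes. Of 12 tested extraembryonic endoderm genes, 8 were higher in shEvx1as cells (median 0.11), and 7 were lower in shEVX1 cells (median -0.14). Of all 14942 entries, 8904 were higher in shEvx1as cells and 5730 lower in shEVX1 cells, with a median of 0.05 in each, so these counts are near those of all entries. Summed over the 18 genes of the extraembryonic endoderm list, levels were 915 and 854 FPKM in shEvx1as cells, against 805, and 499 and 447 in shEVX1 cells, against 550. Most of each sum came from Apoe and Sparc, at 418 and 257 FPKM in the CJ7 control and 207 and 216 in the CJ9 control. Sox7, which marks extraembryonic endoderm, was at 0.531 and 0.642 FPKM in shEvx1as cells, against 0.247, and at 0.230 and 0.289 in shEVX1 cells, against 0.0988. Rbp4, a retinol carrier of yolk sac endoderm and liver, was higher in shEVX1 cells, at 1.85 and 1.04 FPKM against 0.364. The defining visceral endoderm markers Afp and Apoa1 were at or below 0.115 FPKM in the 6 day-4 libraries, and Ttr was listed at 0 in 5 of them. The second shEvx1as library, lowest of the CJ7 libraries in Gsc, Cer1 and Foxa2, was the highest of the 6 in Ttr (0.783 FPKM) and in the visceral endoderm receptor genes Amn (1.51) and Cubn (1.33). The 12 endothelium and blood genes summed to 17.1 and 23.9 FPKM in shEvx1as cells, against 13.3, and to 12.5 and 12.7 in shEVX1 cells, against 16.2. Of the floor plate list, Shh was at or below 0.0872 FPKM in the 6 day-4 libraries, while Ntn1 was higher in shEVX1 cells, at 6.07 and 6.03 FPKM against 2.94. Nkx2-2, of the same list, was higher in shEvx1as cells, at 4.87 and 6.25 FPKM against 2.72. In shEVX1 cells Nkx2-2 was at 0.479 and 0.482 FPKM, against 0.47. Of the 4 tested genes of this list, 3 were higher in each experiment (medians 0.02 and 0.12). Noto, a node and notochord factor, was listed at 0 in all 19 libraries. Pou5f1, the stem cell factor Oct4, stood between 581 and 727 FPKM in the 6 day-4 libraries of LIF withdrawal.

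Over days 4, 5 and 6 of LIF withdrawal in CJ9 control libraries, which come from separate experiments, the 9 genes took different courses. Gsc was at 16.0 FPKM at day 4, 13.3 and 10.2 at day 5 and 3.84 at day 6, and Cer1 at 0.339, then 0.108 and 0.178, then 0.117. Both were thus highest at day 4. Foxa2 was at 1.29 FPKM at day 4, 1.81 and 2.18 at day 5 and 7.76 at day 6. Sox17 was at 0.576, then 2.20 and 2.72, then 7.75 FPKM, and so both endoderm factors were highest at day 6. Nog was at 4.09, then 10.1 and 10, then 10.7 FPKM. Chrd was at 0.324, then 0.686 and 0.473, then 1.57 FPKM, and Foxa1 at 0.232, then 0.208 and 0.244, then 0.682. Cxcr4 was highest at day 5, at 14.0, then 30.2 and 22.4, then 12.3 FPKM, and Hhex highest at day 4, at 3.05, then 1.43 and 2.16, then 2.27. Ttr, a visceral endoderm and liver marker, was listed at 0 at days 4 and 5 and at 8.34 FPKM at day 6, the same library in which Foxa2 and Sox17 were high. Its part in those values was not tested. Days 4 and 6 have 1 library each, and no test was made.

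**Figure D4:**
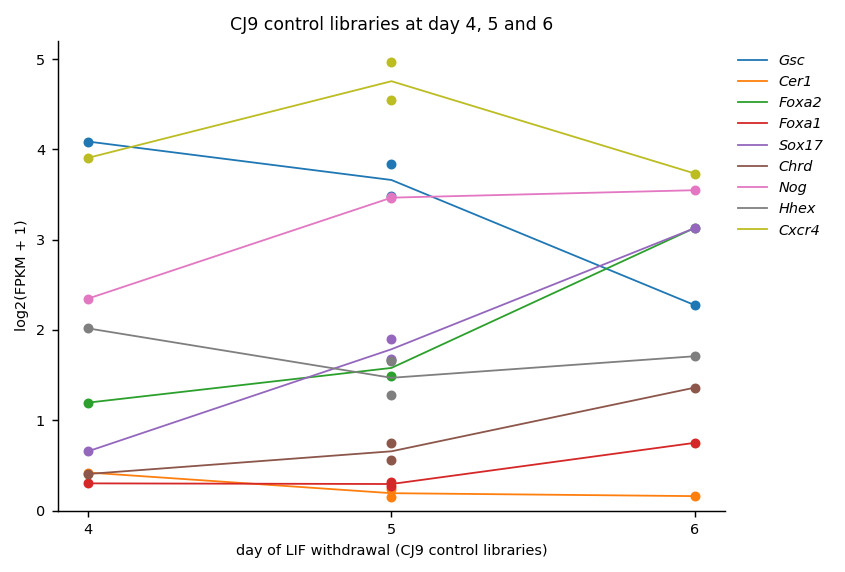
Log2(FPKM + 1) of the 9 genes in CJ9 control libraries at day 4 (1 library), day 5 (2) and day 6 (1) of LIF withdrawal; points are libraries, lines join the means, and the days are separate experiments. The Foxa2 and Sox17 lines end together at day 6, at 7.76 and 7.75 FPKM, while Gsc is lowest at day 6, at 3.84 FPKM.

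At day 6 the shLhx1os library was lower than its control in 4 of the 9 genes by at least 2-fold. Foxa2 was at 0.736 FPKM in the shLhx1os library, against 7.76 in the control. Sox17 was at 1.36, against 7.75, and Cxcr4 at 1.79, against 12.3. The log2 differences were -2.34, -1.89 and -2.25. Gsc was at 1.17 FPKM in the shLhx1os library, against 3.84 (-1.16). Nog was the gene higher by at least 2-fold, at 29.7 FPKM in the shLhx1os library, the highest Nog value of the series, against 10.7 (1.40). Chrd (1.12 against 1.57 FPKM), Foxa1 (0.431 against 0.682), Hhex (2.29 against 2.27) and Cer1 (0.108 against 0.117) differed by at most 0.28 in size. With 1 library per group there is no replicate check. Of all entries 4.4% were at least 2-fold higher and 5.05% at least 2-fold lower, and the median of the 9 was -0.28 against -0.06. Ttr was at 0.0825 FPKM in the shLhx1os library, against 8.34, Gata4, an endoderm and heart factor, at 4.37, against 33.3, and Rbp4 at 0.466, against 3.36. Endothelium and blood genes summed to 10.2 FPKM there, against 55.7, with all 7 tested lower. The extraembryonic endoderm list summed to 1550 FPKM in the shLhx1os library and 1200 in the control, with 8 of 12 tested genes lower. Of all 14942 entries 8278 were lower. Most of each sum came from Sparc (709 FPKM against 369), Col4a1 (274 against 112), Col4a2 (217 against 103) and Apoe (246 against 483). The part of extraembryonic endoderm, endothelial or blood cells in the Foxa2 and Sox17 values was not tested.

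At day 5 Sox17 was at 1.17 and 1.05 FPKM in shFendrr cells, against 2.20 and 2.72 in controls. All 4 libraries were above 1 FPKM and the groups did not overlap. The log2 difference was -0.71 ± 0.25 (limma adjusted p = 0.6122). This was the single one of the 9 genes at an unadjusted p under 0.05, against 7.03% of all entries, and none of the 9 was called, against 0.147% (22 entries). Cxcr4 was at 21.7 and 8.54 FPKM in shFendrr cells, against 30.2 and 22.4, and Foxa2 at 1.51 and 1.37, against 1.81 and 2.18. Hhex, at 2.88 and 2.94 against 1.43 and 2.16, and Foxa1, at 0.377 and 0.433 against 0.208 and 0.244, lay above both controls. These 5 genes of 9 did not overlap between groups, against 30.1% of all entries. Gsc (11 and 6.23 FPKM in shFendrr cells, against 13.3 and 10.2), Nog (6.65 and 15.3, against 10.1 and 10), Chrd (0.633 and 0.478, against 0.686 and 0.473) and Cer1 (0.339 and 0.109, against 0.108 and 0.178) overlapped. Of the BMP list, 2 of 14 genes were called, both lower in shFendrr cells: Bmp5 (log2 change -1.12, limma adjusted p = 0.01689) and the BMP inhibitor Smad6 (-1.01, limma adjusted p = 0.03711). The endothelial marker Cdh5 was at 1.89 and 0.793 FPKM in shFendrr cells, against 2.18 and 1.98. The endothelium and blood list summed to 16.7 and 10.4, against 26.4 and 22.2, and all 7 of its tested genes were lower, as were 7432 of all 14942 entries. The part of endothelial cells in the Sox17 values was not tested.

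In the retinoic acid cultures Cxcr4 was the highest of the 9 genes, and Gsc and Cer1 were near 0. Cxcr4 was at 77.6 and 37.1 FPKM in shNr2f1as cells, 38.0 in shSox21os cells and 100 and 107 in shPou3f3os cells, against 61.3 and 21.6 in controls. Both shPou3f3os libraries lay above both controls, a log2 difference of 1.48 ± 0.49 (limma adjusted p = 0.1236). The controls differed from each other in this gene, and the difference was 2.21 without control replicate 1 (limma adjusted p = 0.02389) and 0.75 without control replicate 2 (limma adjusted p = 0.5758). They differed in stem cell genes as well: Pou5f1 was at 43.5 FPKM in control replicate 1 and 282 in control replicate 2, and the part of this in the values of the 9 genes was not tested.

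Foxa1 was lower than both controls in all 5 knockdown libraries, at 0.795 and 0.563 FPKM in shNr2f1as cells, 0.640 in shSox21os cells and 0.425 and 0.636 in shPou3f3os cells, against 1.22 and 1.55 in controls. The 3 comparisons share those controls. No share of all entries was counted for this order of libraries, nor for those of Cxcr4, Sox17, Nog, Chrd and Cer1 in retinoic acid. The log2 difference was -0.51 ± 0.15 for shNr2f1as (limma adjusted p = 0.1255), -0.54 ± 0.19 for shSox21os (limma adjusted p = 0.3175) and -0.64 ± 0.15 for shPou3f3os (limma adjusted p = 0.05542). The shPou3f3os value passed the threshold without control replicate 1 (-0.74, limma adjusted p = 0.03559) and not without control replicate 2 (-0.54, 0.2708), and it passed with a variance prior without a trend (limma adjusted p = 0.04558). Foxa1 alone of the 9 had an unadjusted p under 0.05 with shNr2f1as and shSox21os, against 18.1% and 11.4% of all entries, and Foxa1 and Cxcr4 did with shPou3f3os, against 20.8%. None of the 9 genes was called, against 0.676% of entries for shNr2f1as, 0.0669% for shSox21os and 2.32% for shPou3f3os. Of 12 other endoderm genes tested, 11 were higher with shNr2f1as (median 0.68), 9 with shSox21os (0.60) and 7 with shPou3f3os (0.19). Of all 14942 entries, 8254 were higher with shNr2f1as, 8013 with shSox21os and 8254 with shPou3f3os. Of the 12 endoderm genes, 1 was called, higher with shNr2f1as. The lists of extraembryonic endoderm (12 tested) and of endothelium and blood (7 tested) each had 1 gene called higher with shNr2f1as. Each also had 1 called higher with shPou3f3os.

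Of the other genes in retinoic acid, Sox17 was at 0.150 to 0.300 FPKM in the 5 knockdown libraries, below both controls at 0.347 and 0.798, and the rest varied by knockdown. Foxa2 was at 3.92 and 1.98 FPKM in shNr2f1as cells, 5.05 in shSox21os cells and 3.34 and 4.32 in shPou3f3os cells, against 2.58 and 5.74 in controls. Hhex was at 3.16 and 3.55, 4.20, and 2.60 and 2.23 FPKM in the same knockdowns, against 2.01 and 4.99. For Hhex the knockdown libraries all fell between the controls, and for Foxa2 4 of 5 did. Chrd was at 1.17 to 1.70 FPKM in the 5 knockdown libraries, against 1.10 and 1.35 in controls, and both shPou3f3os libraries, at 1.57 and 1.58, were above both. Nog was at 1.05 and 0.491 in shNr2f1as cells, 1.52 in shSox21os cells and 1.14 and 0.812 in shPou3f3os cells, against 2.18 and 1.15, so that the shNr2f1as and shPou3f3os libraries were below both controls. Gsc was at 0.145 to 0.551 FPKM, against 0.177 and 1.18, and Cer1 at 0.0575 to 0.289, against 0.0554 and 0.158, with both shPou3f3os libraries (0.191 and 0.242) above both controls. Sox7 was at 1.24 to 6.89 FPKM in these 7 libraries and at most 0.875 in the 12 LIF-withdrawal libraries.

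Across the series each gene had its own range. Of the 5 LIF-withdrawal controls, all were above both retinoic acid controls in Gsc (3.84 to 19.3 FPKM, against 0.177 and 1.18) and Nog (4.09 to 10.7, against 2.18 and 1.15), which is 2 of 9 genes against 25.6% of all entries. No gene of the 9 had all 5 below, against 27.8%. Line, medium and time differ together between these cultures. Hhex and Cxcr4 reached 1 FPKM in 19 libraries, Foxa2 in 18, Nog in 17, Gsc in 13, Chrd in 11, Sox17 in 10, Foxa1 in 5 and Cer1 in 4. The 4 libraries with Cer1 at 1 FPKM were the CJ7 control, the first shEvx1as and both shEVX1 libraries, all at day 4. Foxa1 and Chrd never exceeded 1.81 and 1.70 FPKM, so that their differences are between low values.

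Over the 12 LIF-withdrawal libraries, which share experiments and lines and so are not independent, the genes paired loosely. Pearson's r of log2(FPKM + 1) was 0.78 for Cer1 and Foxa2, 0.74 for Gsc and Cer1 and 0.81 for Foxa1 and Hhex, which were both highest in the 3 CJ7 libraries. It was -0.70 for Nog with Gsc and with Cer1, and -0.79 for Foxa1 and Cxcr4. The named gene most like Gsc was Lhx1 (r = 0.96), followed by Dll3 and Ccnjl (0.95 each). Most like Cer1 were Trh (0.93), Sez6 and Lrig3 (0.91 each), and Trh, which encodes thyrotropin-releasing hormone, was at 40.3 to 103 FPKM. Most like Foxa2 were Pkdcc and Pycrl (0.89 each) and Zmynd8 (0.85), and most like Sox17 were Grin1 (0.93), Prox1 (0.90) and Tcf7l1 (0.89). For Foxa1 they were Nova2, Galnt6 (0.98 each) and Comp (0.96), for Hhex Cactin (0.97), Kri1 and Tgm3 (0.96 each), for Cxcr4 Fam64a, Vstm2b and Rftn1 (0.97 each), and for Nog Limch1, Anxa5 and Emp1 (0.98 each). For Chrd they were Megf10 (0.87), which never exceeded 0.048 FPKM, Prdx5 (0.85) and Pacsin3 (0.83). These likenesses are a description of 12 libraries and were not tested.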

How the data were processed

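Polyadenylated RNA of mouse embryonic stem cells was sequenced in 19 libraries, per the labels' protocols, after bead purification of mRNA and a stranded mRNA library kit. The authors deposited 1 table of FPKM values (38424 entries, 11588 of them unnamed assembled loci). CASAVA, TopHat2 2.0.11 and the builds mm10 and mm9 are named in the submitters' processing notes; the sources used here give neither the quantifier nor the annotation nor the use of strand. Positions match mm9: the table has 116 entries on random chromosomes, and 5.1% of 19220 coding symbols lay within 1000 bp of their GRCm38 position. Starts were changed to 1-based counting. Promoter windows are RefSeq's, in GRCm38.p6, and were used for sequence only.

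Absolute depth is unknown, so no counting interval was computed. Steps between low values gave relative depths of 0.959 to 1.333, with 20.2% to 27.7% of loci within 0.02 (log2) of a whole step, so reads were not recovered.

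Values were taken as log2(FPKM + 1). The 14942 entries that reached 1 FPKM in 2 or more libraries were tested. limma 3.58.1 in R 4.3.3 fitted 1 mean for each of 12 groups to all 19 libraries, with a trended variance prior; 7 groups of 2 libraries gave 7 residual degrees of freedom, and the 5 groups of 1 library were assumed to vary like the others. Two-sided p-values from limma were adjusted by Benjamini-Hochberg over all entries tested, and "called" means an adjusted p under 0.05. Comparisons of 1 library with 1 had no test. The script was tested on simulated data. Alternatives were a pseudocount of 0.1, no filter on low values, no trend in the variance prior, rescaled totals, pooled day-4 controls, a replicate block and leaving out libraries. Further fits used the day-4 libraries of LIF withdrawal (both lines together), the day-5 libraries or the retinoic acid libraries alone.

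The 9 genes and the gene lists were chosen with earlier results of these data known. From each list the text names up to 4 genes with the smallest p. Called genes of the lists are named at day 5 and given only as counts in retinoic acid. Genes given only by their level (T, Nodal, Lefty1, Lefty2, Pou5f1, Sox7, Shh, Noto, Ttr, Afp, Apoa1, Amn, Cubn, Gata4, Apoe, Sparc, Col4a1, Col4a2, and single values of Gata6, Eomes, Mesp1, Mixl1, Bmp4, Id2, Rbp4, Cdh5 and Ntn1) were named after their values were seen. Most like each gene are the 3 named genes with the highest Pearson's r.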

Additional observations from a re-analysis of the deposited data

How the results depend on the processing

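No gene of the 9 changed sign in a comparison in which it was past an unadjusted p of 0.05. With both day-4 controls as 1 group, 4 small differences changed sign: Chrd (0.09) and Hhex (0.42) in shEvx1as cells, and Foxa1 (-0.40) and Hhex (-0.23) in shEVX1 cells; 2 genes, in place of 4, were then lower in shEvx1as cells at an unadjusted p under 0.05. The Nog difference in shEvx1as cells ranged from -0.30 to 0.01 with 1 knockdown library left out. The difference between the effects in Cer1 passed the adjusted threshold with no filter (adjusted p = 0.009952), without a trend in the prior (0.04913) and without the first shEvx1as library (0.01317); elsewhere its adjusted p lay between 0.05042 and 0.9336. Foxa1 with shPou3f3os passed without a trend (0.04558). With a pseudocount of 0.1 the control difference between CJ7 and CJ9 was 3.40 for Cer1, 3.08 for Foxa2 and 1.81 for Sox17, and the shLhx1os difference was -3.23 for Foxa2 and -2.43 for Sox17. The cause was not tested.

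Counts of called entries moved most. With a pseudocount of 0.1, 0 entries were called for shEvx1as, 0 for shEVX1 and 1 for shFendrr. With no filter on low values the counts were 213 for shEvx1as, 136 for shEVX1, 265 for the difference between their effects, 87 for shFendrr, 47 for shNr2f1as, 216 for shSox21os and 161 for shPou3f3os. Without a trend they were 2 for shEvx1as, 3 for the difference and 54 for shNr2f1as. Fits to the day-4 libraries of LIF withdrawal (both lines together), the day-5 libraries or the retinoic acid libraries alone called 0 for shEvx1as, shEVX1, shFendrr, shNr2f1as and shPou3f3os. Leaving out 1 library gave 2 to 4 for shEvx1as, 0 to 0 for shEVX1, 0 to 3 for the difference, 2 to 231 for shFendrr, 43 to 391 for shNr2f1as, 29 to 186 for shSox21os and 0 to 1240 for shPou3f3os.

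With a replicate block 30 entries were called for shFendrr, 331 for shNr2f1as and 813 for shPou3f3os. The limma adjusted p was then 0.04037 for Cxcr4 in shPou3f3os cells and 0.3822 for Sox17 in shFendrr cells. The correlation of deviations between libraries of the same number was 0.35 for shFendrr, 0.30 for shNr2f1as and -0.02 for shPou3f3os with their controls. With 2 pairs each, these values cannot settle whether libraries of the same number share a batch. The labels name no such pairing, so the main fits are unpaired. No paired analysis was possible at day 4 because each control is 1 library.

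Depth is unknown, Cer1, Foxa1, Chrd and Sox17 are low in most libraries, and their values are the least precise.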
